A study of Mus musculus with 6 samples.

Results

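The primary cilium is a single non-motile antenna that most mesenchymal cells carry, and 34 genes that build it, load it or shape its membrane were followed here in bone-forming and cartilage-forming cells of newborn mice. They were taken by name and class from a list drawn up with earlier results of these data known. All 34 were found among the 23364 gene symbols of the RNA-seq table, as 39 of its 31055 RefSeq transcripts. They comprise 6 genes of intraflagellar transport complex A (IFT-A), 10 of complex B (IFT-B), 5 of the motors, 8 of the BBSome and its assembly factors, and 5 of a membrane module.

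RNA was measured in 3 libraries of osteoblasts, sorted for GFP and labelled Sp7 positive, from calvaria (the skull roof), and in 3 libraries of chondrocytes, labelled WT, from rib cartilage. All mice were C57BL/6 at postnatal day 1. No treatment was given, and the labels do not name the construct that carries GFP. Osteoblasts were released with Liberase TM and chondrocytes with Pronase and Collagenase D. Cell type, skeletal site, sorting, genotype and enzyme all follow the group and cannot be told apart. Nothing in the labels says whether the replicates came from separate animals or pools, so p-values measure the spread between these libraries, which may be technical.

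Cilia are built and kept by trains that run along their microtubules. Kinesin-II (Kif3a, Kif3b and the linker Kifap3) carries IFT-B trains outward from the base, and cytoplasmic dynein-2 (Dync2h1, Dync2li1) with IFT-A brings them back. The BBSome is a coat-like cargo adaptor that moves membrane receptors out of the cilium, and Evc with Evc2 forms a complex near the ciliary base that passes hedgehog signals from Smoothened. In the skeleton, loss of IFT or dynein-2 genes causes short-rib and Jeune dysplasias, loss of Evc or Evc2 causes Ellis-van Creveld syndrome, and loss of BBS genes causes Bardet-Biedl syndrome.

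Values are RPKM, reads scaled to transcript length and library size, summed over the transcripts of a gene. A difference is the osteoblast mean less the chondrocyte mean of log2(RPKM + 1), given with its standard error (SE), folds are ratios of mean RPKM, and a gene was called at an adjusted p under 0.05 (limma, Benjamini-Hochberg) over the 11218 genes that reached an RPKM of 1 in 3 or more libraries. That filter kept 33 members and left out Bbs10.

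Cilium transport genes did not move together between the cell types. As deposited, 11 of 33 tested members were called on the osteoblast side, 5 on the chondrocyte side and 17 on neither. Over all tested genes 55.5% were called higher in osteoblasts, 13.5% higher in chondrocytes and 69.0% in either direction, so the members' 33.3% on the osteoblast side lay under the background and their 15.2% on the chondrocyte side near it. The members' median difference was 0.17, against 0.43 for all tested genes, and 24 of the 33 lay below that all-gene median. The 3 osteoblast values were all above the 3 chondrocyte values for 13 tested members (39.4%) and all below for 7 (21.2%), where all tested genes gave 60.4% and 15.3%.

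Directions near 0 depend on how the libraries are scaled. The 10 most abundant genes held 15.4% to 16.5% of the RPKM sum in osteoblasts and 23.0% to 28.7% in chondrocytes. Median-of-ratios scaling, which sets the typical expressed gene equal between libraries, moved the all-gene median from 0.43 to 0.05 and the members' median to -0.23. Under it 4 members were called higher in osteoblasts (12.1%, against 33.1% of all genes) and 16 higher in chondrocytes (48.5%, against 29.0%). Of the 33 members 12 went from a positive to a negative difference. The 4 higher in osteoblasts were Ift43, Ttc21b, Kif3a and Kifap3, and the 16 higher in chondrocytes held all 5 chondrocyte calls of the deposited scale and 11 genes not called there. Of the 16 calls on the deposited scale, 7 kept their direction and their call in every alternative that could test them: Ift43, Ttc21b, Kif3a and Kifap3 on the osteoblast side and Wdr19, Ift88 and Bbs12 on the chondrocyte side. Bbs12 could be tested in 16 of the 18 alternatives. It did not pass the filter of a mean RPKM of 5, or the main filter on its transcript of highest mean alone.

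**Figure D1:**
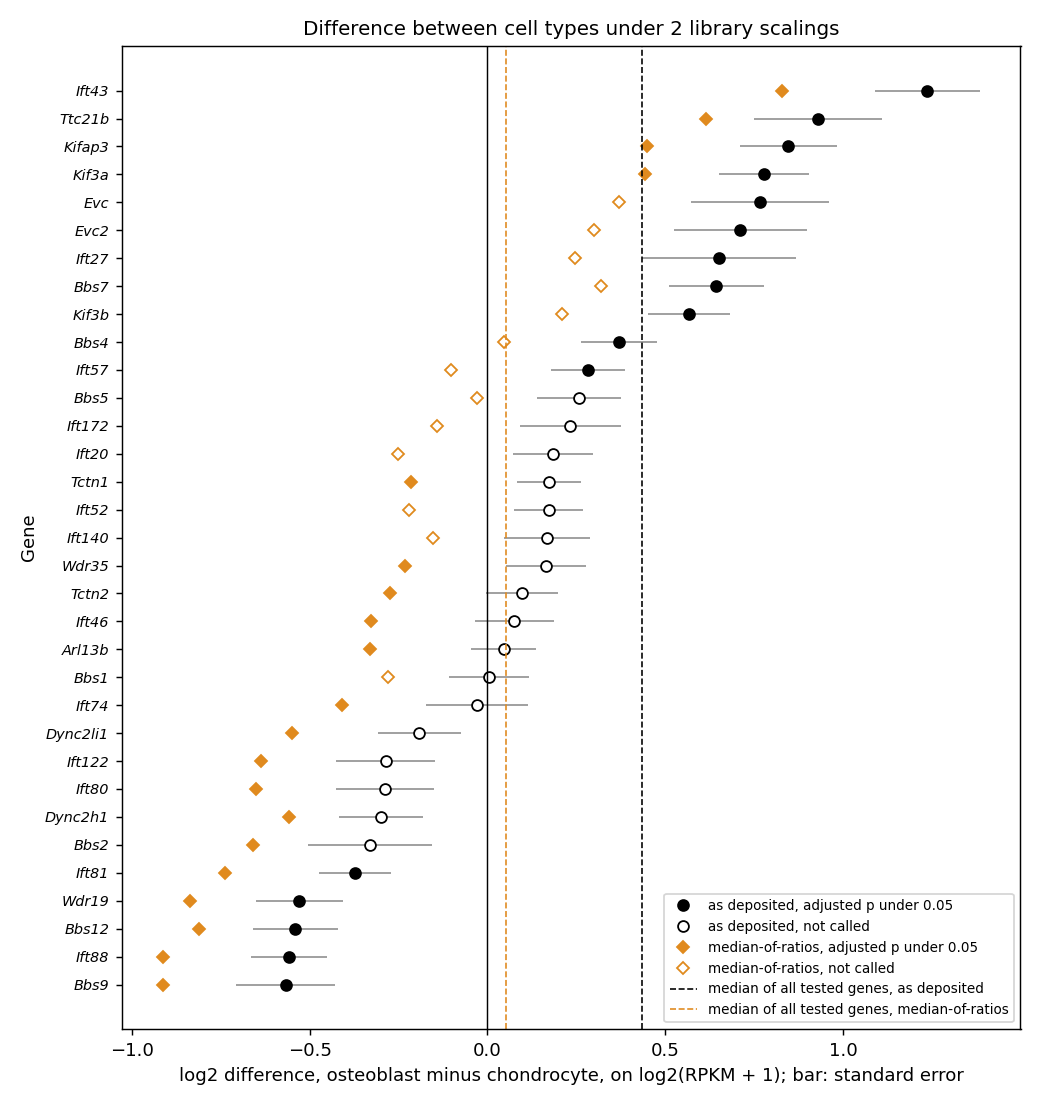
Log2 difference between osteoblasts and chondrocytes (x axis, on log2(RPKM + 1), bars are standard errors) for the 33 tested genes (y axis), as deposited (black circles) and under median-of-ratios scaling (orange diamonds, drawn without bars); filled symbols were called, and dashed lines are the medians of all tested genes. The whole set shifts left under median-of-ratios scaling, where Ift43, Ttc21b, Kifap3 and Kif3a are the filled symbols on the osteoblast side.

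Marker genes followed the labels. The 10 osteoblast markers summed to 33116 to 35330 RPKM in osteoblasts and 4305 to 14390 in chondrocytes, and the 10 chondrocyte markers to 252 to 291 and 32688 to 57257 RPKM. The chondrocyte sum of osteoblast markers was mostly Col1a1 and Col1a2, which fibroblasts and perichondrium also express: 2270 and 2388 RPKM in replicate 1, 2259 and 1985 in replicate 2, and 7765 and 6574 in replicate 3. Bglap, Ibsp and Dmp1, which mark osteoblasts more narrowly, averaged 0.486, 1.33 and 0.141 RPKM in chondrocytes against 229, 707 and 102 RPKM in osteoblasts. Chondrocyte replicate 3 was the highest of its group in the fibroblast and perichondrium genes Col3a1, Thy1 and Tnmd. Among the osteoblast markers other than Col1a1 and Col1a2 it was the lowest in Bglap, Dmp1 and Spp1 and the highest in Ifitm5. In Ibsp, Sp7, Alpl and Runx2 it lay between the other chondrocyte libraries. Summed RPKM in osteoblasts and in chondrocytes was 18.5 to 21.8 and 1.64 to 10.003 for 7 myeloid markers, 0.671 to 2.18 and 2.21 to 5.08 for 6 endothelial markers, and 3481 to 5071 and 1681 to 5523 for 10 fibroblast and perichondrium markers. It was 13.5 to 29.2 and 2.92 to 12.8 for 5 erythroid markers (Hemgn listed at the table's floor in all libraries), and 10.6 to 12.5 and 36.8 to 55.3 for 6 neural and glial markers, where S100b, also a cartilage gene, held 33.8 to 53.4 of the chondrocyte sum. Muscle markers (0.437 to 0.715 and 0.436 to 0.647, with Ckm at the floor throughout) and epithelial markers (0.649 to 0.961 and 0.199 to 0.276) were low. Of 12 proliferation genes 10 were called higher in osteoblasts, against 55.5% of all tested genes, led by Rrm2 (2.11), Ccna2 (1.83) and Ccnb1 (1.82). Cdk1 and Mki67 were not called. Median-of-ratios scaling left 4 called, Rrm2 among them, which was near the 33.1% of all tested genes. Ccna2 and Ccnb1 lost their calls under it (limma adjusted p = 0.0836 and 0.0747). The 12 genes summed to 169 to 196 RPKM in osteoblasts and to 51.4, 109 and 65.7 RPKM in chondrocyte replicates 1 to 3. Their part, and that of the other cell types, in the results that follow was not tested. In bulk RNA, fewer ciliated cells and less RNA per cell cannot be told apart.

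Chondrocyte replicate 2 was the lowest of its group for 26 of the 34 members, and osteoblast replicate 3 was the lowest of its group for 23. Without chondrocyte replicate 2 the members higher in chondrocytes went from 5 to 10, with Bbs2, Dync2h1, Dync2li1, Ift122 and Ift80 added. The members higher in osteoblasts stayed at 11. All tested genes then gave 57.7% higher in osteoblasts and 14.9% higher in chondrocytes, against 55.5% and 13.5% with all libraries. How often all genes were lowest in a given library was not counted. Chondrocyte replicate 2 also had the highest proliferation sum of its group. Its 10 most abundant genes held 28.7% of its RPKM sum, against 24.4% and 23.0% in chondrocyte replicates 1 and 3. The part of either in these values was not tested. Reads behind the values were estimated from the steps in low RPKM: 1 RPKM in a 2 kb transcript stood for 53.8 to 71.7 reads. Of the 33 members with a known transcript length, Bbs10 alone fell under 50 reads in any library, and 3 (Bbs10, Bbs5 and Bbs12) under 100.

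**Figure D2:**
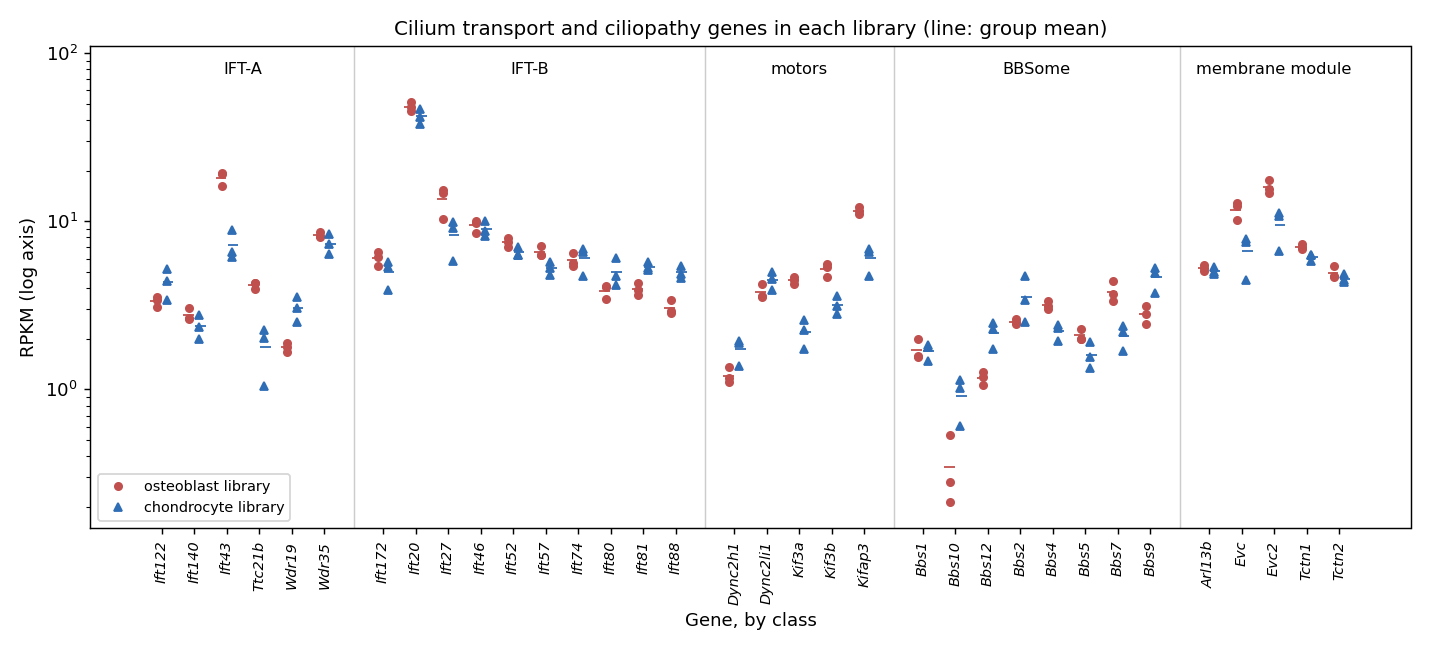
RPKM (log axis) of each of the 34 genes by class, with 1 point per library (red circles osteoblast, blue triangles chondrocyte) and a line at each group mean. Ift20 is the most abundant in both cell types, Bbs10 the least, and Ift43, Ttc21b, Kif3a, Kif3b and Kifap3 show osteoblast points above all chondrocyte points.

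Kinesin-II, the outward motor, was higher in osteoblasts in all of its subunits as deposited. The motor subunit Kif3a stood at 4.45, 4.66 and 4.23 RPKM in osteoblast replicates 1 to 3 and at 2.59, 1.74 and 2.26 RPKM in chondrocyte replicates 1 to 3. The groups did not overlap, and the means of 4.45 ± 0.214 and 2.20 ± 0.431 RPKM (SD, n = 3 each) differed 2.02-fold (0.78 ± 0.13 SE, limma adjusted p = 0.00113). Its partner motor Kif3b gave 5.35, 5.58 and 4.65 RPKM against 3.60, 2.82 and 3.13 RPKM, a 1.63-fold difference (0.57 ± 0.12, limma adjusted p = 0.0034). Kifap3, the non-motor subunit that links the motor to cargo, gave 11.5, 12.1 and 11.04 RPKM against 6.54, 4.72 and 6.86 RPKM, 1.91-fold (0.85 ± 0.14, limma adjusted p = 0.00114). In each of these genes every osteoblast library exceeded every chondrocyte library. Kif3b was no longer called with median-of-ratios scaling (0.21, adjusted p = 0.0699), while Kif3a (0.44, adjusted p = 0.0056) and Kifap3 (0.45, adjusted p = 0.00413) held theirs.

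Dynein-2, the return motor, lay on the other side of 0 in its 2 members, neither called as deposited. Its heavy chain Dync2h1 was at 1.36, 1.10 and 1.16 RPKM in osteoblasts and 1.93, 1.37 and 1.88 RPKM in chondrocytes (-0.30, limma adjusted p = 0.0533, not called). The highest osteoblast value was just under the lowest chondrocyte value. The light intermediate chain Dync2li1 overlapped between the groups, at 4.23, 3.60 and 3.54 RPKM against 4.97, 3.91 and 4.55 RPKM (-0.19, adjusted p = 0.177). Under median-of-ratios scaling both were called higher in chondrocytes (-0.56 and -0.55, limma adjusted p = 0.00188 and 0.00148), so the motor class counted 3 higher in osteoblasts and 0 higher in chondrocytes as deposited, and 2 and 2 under that scaling. Of all tested genes 55.5% and 13.5% were called in these directions as deposited and 33.1% and 29.0% under that scaling, so with 5 genes the osteoblast share as deposited was near the background. Its median difference was 0.57 and 0.21 on the 2 scales.

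A ratio of 2 genes within a library does not change with library scaling. The 12 ratios given here were chosen after the values were seen, and with 3 libraries against 3 an exact two-sided permutation test cannot give a p under 0.10, so they are descriptions. The ratio of Dync2h1 to Kif3a was 0.306, 0.237 and 0.275 in osteoblasts and 0.746, 0.791 and 0.832 in chondrocytes, with no overlap between the groups. Within kinesin-II the ratio of Kif3a to Kifap3 was similar in both, at 0.385 ± 0.00208 and 0.364 ± 0.0332 (SD, n = 3 each), and that of Kif3a to Kif3b was 0.858 ± 0.0446 and 0.686 ± 0.0618. Within dynein-2 the ratio of Dync2h1 to Dync2li1 was 0.319 ± 0.0110 and 0.384 ± 0.0317.

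IFT-A, the complex that drives return transport and membrane protein entry, was divided inside itself. In textbook descriptions Ift122, Ift140 and Wdr19 form its core, and Ift43, Wdr35 and Ttc21b the outer part. Ift43, a small subunit, had the largest difference on the log2(RPKM + 1) scale among the 33 tested members, at 19.3, 19.1 and 16.1 RPKM in osteoblasts and 6.55, 6.13 and 8.91 RPKM in chondrocytes. Means of 18.2 ± 1.79 and 7.19 ± 1.497 RPKM differed 2.52-fold (1.24 ± 0.15 SE, limma adjusted p = 0.000267). Ttc21b, the subunit known as IFT139, stood at 4.31, 4.32 and 3.94 RPKM against 2.04, 1.05 and 2.25 RPKM, 2.36-fold (0.93 ± 0.18, adjusted p = 0.00261). Chondrocyte replicate 2 was the lowest library, and the groups did not overlap.

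Wdr19, the subunit known as IFT144, went the opposite way. It was at 1.78, 1.88 and 1.68 RPKM in osteoblasts and 3.53, 2.51 and 3.05 RPKM in chondrocytes, 1.70-fold higher in cartilage (-0.53 ± 0.12, limma adjusted p = 0.00602). The remaining IFT-A genes overlapped between the groups and were not called: Ift122 at 3.42, 3.52 and 3.08 against 5.20, 3.42 and 4.39 RPKM (-0.29, adjusted p = 0.104), and Ift140 at 3.05, 2.63 and 2.64 against 2.77, 1.99 and 2.35 RPKM (0.17, adjusted p = 0.246). Wdr35, IFT121, was at 8.06, 8.63 and 8.22 against 8.35, 6.37 and 7.30 RPKM (0.16, adjusted p = 0.224). The class thus counted 2 higher in osteoblasts and 1 higher in chondrocytes, and 2 and 3 under median-of-ratios scaling, where Ift122 and Wdr35 joined Wdr19 and the median went from 0.17 to -0.19. All tested genes gave 55.5% and 13.5% in these directions as deposited and 33.1% and 29.0% under that scaling. With 6 genes, the chondrocyte share as deposited and the osteoblast share under that scaling were near the background.

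The proportions of IFT-A transcripts within a library differed between the cell types. The ratio of Ttc21b to Wdr19 was 2.42, 2.30 and 2.35 in osteoblasts and 0.577, 0.419 and 0.737 in chondrocytes, so Ttc21b exceeded Wdr19 per length in every osteoblast library and lay below it in every chondrocyte library. The ratio of Ift43 to Wdr19 was 10.2 ± 0.632 and 2.41 ± 0.533 (SD, n = 3 each). Ift122 to Wdr19, the pair of core genes, gave 1.88 ± 0.0443 and 1.43 ± 0.0545.

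**Figure D3:**
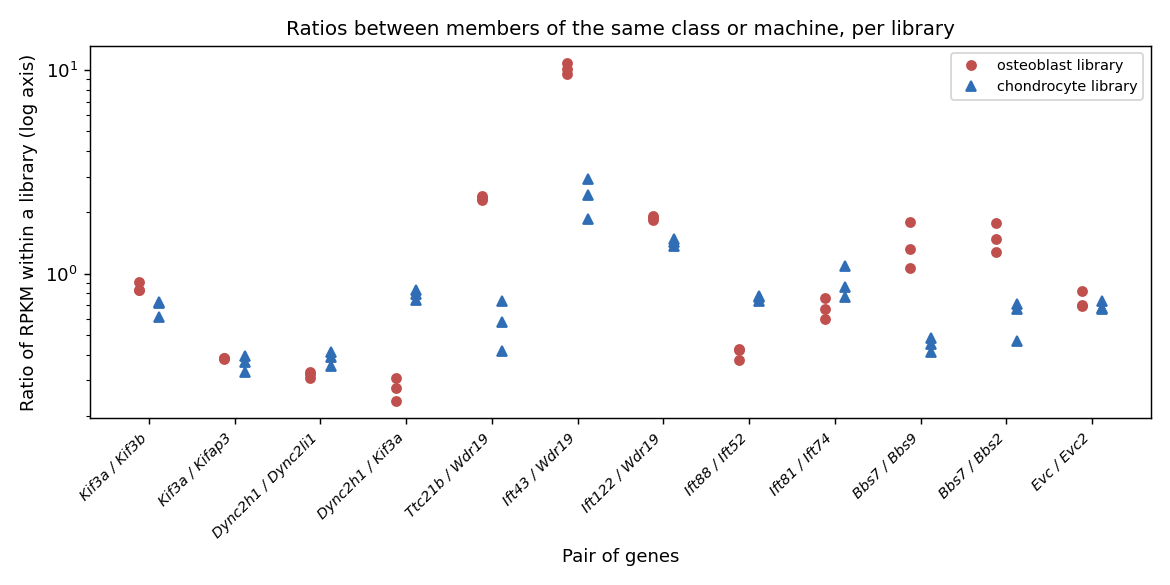
Ratio of RPKM within a library (log axis) for 12 pairs of genes, with 1 point per library (red circles osteoblast, blue triangles chondrocyte). Kif3a to Kifap3 and Evc to Evc2 overlap between the cell types. All other pairs separate them, Ift81 to Ift74 by a narrow gap.

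IFT-B, the outbound train, held subunits higher in each cell type and subunits that were not called. Ift20, which also works at the Golgi, was the most abundant member at 47.5, 50.8 and 44.9 RPKM in osteoblasts and 37.8, 41.7 and 46.4 RPKM in chondrocytes (0.18, limma adjusted p = 0.175). The groups overlapped, as they did for Ift46 (10.1, 9.77 and 8.54 against 9.98, 8.71 and 8.11 RPKM, difference 0.08) and Ift52 (7.53, 7.94 and 6.98 against 7.05, 6.29 and 6.26 RPKM, difference 0.17), both core subunits. Ift172, the largest IFT-B protein, averaged 6.01 and 5.01 RPKM and Ift74 5.85 and 6.04 RPKM, neither called (adjusted p = 0.179 and 0.867).

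The core subunits Ift88 and Ift81 were higher in chondrocytes. Ift88, the gene of the Oak Ridge polycystic kidney mouse, stood at 2.84, 3.39 and 2.94 RPKM in osteoblasts and 5.41, 4.89 and 4.62 RPKM in chondrocytes, a 1.63-fold difference (-0.56 ± 0.11 SE, limma adjusted p = 0.00251). Ift81, which binds tubulin together with Ift74, gave 3.62, 4.29 and 3.87 RPKM against 5.70, 5.16 and 5.26 RPKM, 1.37-fold (-0.37 ± 0.10, adjusted p = 0.0121). Neither overlapped between the groups. The call of Ift81 ended without osteoblast replicate 1 (adjusted p = 0.0613). Ift80, a gene of Jeune dysplasia, did not overlap either, at 4.06, 4.09 and 3.45 against 6.03, 4.19 and 4.73 RPKM, but was not called (-0.29, adjusted p = 0.0962).

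Ift27 and Ift57 were higher in osteoblasts on the deposited scale. Ift27, a small GTPase that hands BBSomes out of the cilium, was at 15.4, 14.7 and 10.3 RPKM against 9.11, 5.79 and 9.93 RPKM, 1.63-fold (0.65 ± 0.22 SE, limma adjusted p = 0.0294). Its lowest osteoblast library and highest chondrocyte library nearly met, and the call ended without osteoblast replicate 1 or 2 (adjusted p = 0.104 and 0.0978) and under median-of-ratios scaling (0.25, adjusted p = 0.237). Ift57, a peripheral subunit, was at 7.14, 6.30 and 6.29 against 5.24, 5.69 and 4.78 RPKM (0.28 ± 0.10, adjusted p = 0.0422). That call ended when osteoblast replicate 1, 2 or 3 or chondrocyte replicate 1 or 3 was left out (adjusted p = 0.0785 to 0.162), and median-of-ratios scaling reversed the sign of the difference (-0.10, adjusted p = 0.494). The class counted 2 higher in each cell type, and 0 higher in osteoblasts and 5 higher in chondrocytes under that scaling, with medians of 0.12 and -0.29. For all tested genes the shares higher in osteoblasts and in chondrocytes were 55.5% and 13.5% as deposited and 33.1% and 29.0% under that scaling.

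Inside IFT-B the ratio of Ift88 to its neighbour in the core, Ift52, was 0.377, 0.427 and 0.421 in osteoblasts and 0.768, 0.777 and 0.737 in chondrocytes. This ratio was tight in each cell type and did not overlap. Ift81 to Ift74, the partners of 1 dimer, gave 0.675 ± 0.0786 and 0.910 ± 0.166 (SD, n = 3 each), with only a narrow gap between the groups.

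The BBSome was split between its subunits. Bbs7, a subunit with a beta-propeller, was at 3.36, 3.71 and 4.39 RPKM in osteoblasts and 2.18, 1.69 and 2.39 RPKM in chondrocytes, 1.83-fold (0.64 ± 0.13 SE, limma adjusted p = 0.00369). Bbs4, which links the complex to centriolar satellites, was at 3.12, 3.37 and 2.998 against 2.31, 1.94 and 2.42 RPKM, 1.42-fold (0.37 ± 0.11, adjusted p = 0.0159). Neither gene overlapped between the groups. Under median-of-ratios scaling neither was called (0.32 and 0.05, adjusted p = 0.051 and 0.612), and the call of Bbs4 also ended without osteoblast replicate 1 or 2 (adjusted p = 0.058 and 0.0734).

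Bbs9, a scaffold subunit, and Bbs12, part of the chaperonin-like complex that assembles the BBSome, were higher in chondrocytes. Bbs9 stood at 3.15, 2.80 and 2.46 against 5.28, 3.76 and 4.95 RPKM, 1.66-fold higher in cartilage (-0.57 ± 0.14, limma adjusted p = 0.00784). Bbs12 stood at 1.18, 1.06 and 1.27 against 2.49, 2.27 and 1.74 RPKM, 1.85-fold (-0.54 ± 0.12, adjusted p = 0.00514). Every chondrocyte library exceeded every osteoblast library in both genes. Bbs10, the other assembly factor, was low, at 0.534, 0.215 and 0.282 against 1.13, 0.604 and 1.02 RPKM, or about 50.7, 19.8 and 20.8 against 104.4, 55.6 and 100.4 reads. Every chondrocyte value was above every osteoblast value, and without the filter on low values Bbs10 was called higher in chondrocytes (-0.51, limma adjusted p = 0.0249). Its ratio of means, 2.67-fold, was above the 2.52-fold of Ift43.

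The other BBSome genes were not called. Bbs2, also a propeller subunit, was at 2.62, 2.51 and 2.46 against 4.70, 2.51 and 3.38 RPKM (-0.33, limma adjusted p = 0.126). Bbs5, which binds phosphoinositides, was at 2.29, 2.00 and 2.01 against 1.93, 1.34 and 1.55 RPKM (0.26, adjusted p = 0.0844), and Bbs1, the subunit that receives the GTPase Arl6, was at 2.00, 1.56 and 1.59 against 1.84, 1.79 and 1.48 RPKM (0.01, adjusted p = 0.971). The class counted 2 higher in each cell type as deposited and 0 and 3 under median-of-ratios scaling, with medians of 0.01 and -0.28. For all tested genes the shares higher in osteoblasts and in chondrocytes were 55.5% and 13.5% as deposited and 33.1% and 29.0% under that scaling. Bbs7 to Bbs9 was 1.39 ± 0.364 in osteoblasts and 0.449 ± 0.0342 in chondrocytes, and Bbs7 to Bbs2 was 1.51 ± 0.252 and 0.615 ± 0.131 (SD, n = 3 each), in both cases with no overlap.

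In the membrane module the Ellis-van Creveld pair was higher in osteoblasts as deposited, and the rest differed by 0.05 to 0.17. Evc was at 12.2, 12.7 and 10.1 RPKM in osteoblasts and 7.84, 4.49 and 7.48 RPKM in chondrocytes, 1.77-fold (0.77 ± 0.19 SE, limma adjusted p = 0.00937). Evc2 was at 17.5, 15.5 and 14.6 against 10.7, 6.62 and 11.2 RPKM, 1.67-fold (0.71 ± 0.19, adjusted p = 0.0108). Both were lowest in chondrocyte replicate 2 and did not overlap between groups, and with median-of-ratios scaling both lost the call (0.37 and 0.30, limma adjusted p = 0.0616 and 0.0926). The ratio of Evc to Evc2 was 0.739 ± 0.0728 in osteoblasts and 0.694 ± 0.0363 in chondrocytes (SD, n = 3 each) and overlapped.

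Arl13b, the small GTPase of the ciliary membrane mutated in Joubert syndrome, was at 5.45, 5.24 and 5.05 against 5.32, 4.99 and 4.85 RPKM (0.05, limma adjusted p = 0.673). Tctn1, a tectonic protein of the transition zone, was at 7.00, 7.29 and 6.85 against 6.26, 5.83 and 6.31 RPKM, with no overlap (0.17, adjusted p = 0.118). Its relative Tctn2 overlapped, at 5.43, 4.72 and 4.66 against 4.47, 4.33 and 4.84 RPKM (0.10, adjusted p = 0.42). None of these was called as deposited, and with median-of-ratios scaling all were called on the chondrocyte side (-0.33, -0.21 and -0.27, adjusted p = 0.0148, 0.0353 and 0.0244). In the annotation 19.0% of the exonic bases of Tctn1 are shared with Hvcn1 on the opposite strand, so its reads may in part come from that gene. The overlap was 7.9% or less for Ift57, Bbs4, Ift88 and Bbs12, the other members with such a neighbour.

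There were 5 members with 2 transcripts each, and the split between them was not tested. Ift43 was almost wholly the transcript NM_001199843, at 99.7% of its RPKM on average in osteoblasts and 98.2% in chondrocytes. Wdr35 was 91.7% and 91.4% NM_001159527. Ift122 held 83.5% and 71.2% in NM_001167763, and Bbs12 56.6% and 45.1% in NM_001255992. The share of Bbs9 in NM_181316 ranged from 54.9% to 93.2% among the osteoblast libraries. Taking only its transcript of highest mean ended the call of Bbs9 (-0.39, limma adjusted p = 0.109).

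Many cilium genes are known targets of RFX transcription factors, which bind the X-box, an inverted repeat. RefSeq promoter entries (build GRCm38.p6) were found for 30 members, and the 250 bases before each start were searched on both strands. The palindrome GTTNCCNNGGNAAC was in 1 of 30 member promoters (3.3%) and in 0.374% of all 32851 entries. A single arm, GTTGCC or GTTGCT, was in 10 of 30 (33.3%) and in 21.0% of all entries. By call as deposited, an arm was found in 6 of 11 members higher in osteoblasts, 1 of 4 higher in chondrocytes and 3 of 14 not called. The 6 were Bbs7, Evc, Ift27, Ift57, Kif3a and Kif3b, and of these Kif3a alone kept its call under median-of-ratios scaling. Shares by call were not computed for all genes, and a link between arm and call was not tested. These matches describe letters only.

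The 130 bases before the start are shown first for the 7 members whose calls held in every alternative that could test them. Windows of Bbs7, which holds the palindrome, and of Kif3b and Ift57, which hold 2 copies of the same arm each, follow. Capitals mark the palindrome or an arm on either strand.
Ift43 (chr12:86082431-86082560, plus strand): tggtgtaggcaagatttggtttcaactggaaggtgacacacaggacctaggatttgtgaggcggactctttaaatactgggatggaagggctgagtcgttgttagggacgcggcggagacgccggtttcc
Ttc21b (chr2:66256618-66256747, minus strand): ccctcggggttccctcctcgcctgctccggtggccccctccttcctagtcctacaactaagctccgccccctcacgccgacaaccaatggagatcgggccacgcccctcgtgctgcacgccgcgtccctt
Kif3a (chr11:53567239-53567368, plus strand): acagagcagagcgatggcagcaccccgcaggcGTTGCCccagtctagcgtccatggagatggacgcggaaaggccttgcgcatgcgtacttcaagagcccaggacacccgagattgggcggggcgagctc
Kifap3 (chr1:163779453-163779582, plus strand): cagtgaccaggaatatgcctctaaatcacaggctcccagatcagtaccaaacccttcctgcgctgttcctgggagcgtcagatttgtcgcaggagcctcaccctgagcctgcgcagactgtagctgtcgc
Wdr19 (chr5:65199566-65199695, plus strand): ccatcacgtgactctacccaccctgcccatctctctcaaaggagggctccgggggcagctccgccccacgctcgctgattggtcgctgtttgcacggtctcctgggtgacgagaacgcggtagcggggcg
Ift88 (chr14:57423941-57424070, plus strand): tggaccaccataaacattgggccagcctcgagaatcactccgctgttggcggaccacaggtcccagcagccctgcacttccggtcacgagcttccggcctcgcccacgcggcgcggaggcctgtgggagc
Bbs12 (chr3:37312424-37312553, plus strand): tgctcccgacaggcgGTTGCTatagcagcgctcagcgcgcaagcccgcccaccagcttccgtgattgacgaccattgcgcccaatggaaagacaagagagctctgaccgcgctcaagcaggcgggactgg
Bbs7 (chr3:36613390-36613519, minus strand): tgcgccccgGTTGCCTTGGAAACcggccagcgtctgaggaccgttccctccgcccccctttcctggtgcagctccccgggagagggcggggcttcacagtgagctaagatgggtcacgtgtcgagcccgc
Kif3b (chr2:153291286-153291415, plus strand): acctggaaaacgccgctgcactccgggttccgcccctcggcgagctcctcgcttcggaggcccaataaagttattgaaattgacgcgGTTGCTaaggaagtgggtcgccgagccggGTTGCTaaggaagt
Ift57 (chr16:49699164-49699293, plus strand): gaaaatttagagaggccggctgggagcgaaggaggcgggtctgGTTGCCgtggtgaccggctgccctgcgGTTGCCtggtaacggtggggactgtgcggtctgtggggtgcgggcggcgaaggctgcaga
Bbs7 carries the palindrome 121 bases before its start. Kif3b carries the arm GTTGCT at 43 and 14 bases and Kif3a the arm GTTGCC at 98 bases before the start. Ift57 holds GTTGCC at 87 and 60 bases. Its copy at 60 bases is closely followed by ggtaac, which has the letters of the palindrome's other arm but not the fixed spacing that was searched. Bbs12, higher in chondrocytes, holds GTTGCT at 115 bases. None of these letters is in the windows shown for the osteoblast calls Ift43, Ttc21b and Kifap3 or the chondrocyte calls Ift88 and Wdr19. Evc and Evc2 start 1597 bases apart on opposite strands of chromosome 5 and are transcribed away from each other.

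RFX genes themselves were measured. Of 6, 4 were tested and 3 were higher in osteoblasts: Rfx7 at 5.67 against 2.74 RPKM (0.84), Rfx2 at 2.49 against 1.43 RPKM (0.55) and Rfx5 at 4.995 against 3.15 RPKM (0.53). All tested genes gave 55.5% higher in osteoblasts and 13.5% higher in chondrocytes as deposited, and 33.1% and 29.0% under median-of-ratios scaling. A count of 4 genes is too small to set apart from these shares. Rfx1 was at 5.61 and 5.65 RPKM and not called. Under median-of-ratios scaling, which let Rfx3 pass the filter, Rfx2 and Rfx5 lost their calls (limma adjusted p = 0.162 and 0.0994). Rfx7 was then called higher in osteoblasts (0.48, limma adjusted p = 0.00372) and Rfx3 higher in chondrocytes (-0.40, limma adjusted p = 0.0107). Rfx3, a known activator of ciliary genes, did not pass the filter as deposited, at 0.7496 and 1.02 RPKM, and Rfx4 was at the table's floor.

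Other subunits of the same machines and other cilium genes were counted from lists of textbook knowledge, drawn up with earlier results known. Each count stands against 55.5% of all tested genes higher in osteoblasts and 13.5% higher in chondrocytes as deposited, and with median-of-ratios scaling against 33.1% and 29.0%. Of 10 tested IFT-B and motor subunits outside the member list, 4 were higher in osteoblasts and 0 higher in chondrocytes, against 2 and 4 under median-of-ratios scaling. The 4 then higher in chondrocytes were Tctex1d2 (-0.64), Ttc30b (-0.56), Wdr34 (-0.56) and Wdr60 (-0.51). As deposited these were at -0.27, -0.24, -0.17 and -0.17 and not called. Rabl5 (IFT22) was at 8.65 against 4.56 RPKM (0.79), Cluap1 (IFT38) at 7.09 against 3.78 RPKM (0.76), Ttc26 (IFT56) at 2.01 against 1.32 RPKM (0.37) and Kif3c, an alternative kinesin-II motor, at 3.18 against 2.41 RPKM (0.30, but -0.03 under median-of-ratios and upper-quartile scaling). Hspb11 (IFT25) was not called at 8.84 against 7.39 RPKM. Of 7 further BBS genes 4 were higher in osteoblasts and 1 lower, and 3 and 2 under median-of-ratios scaling. Upper-quartile scaling gave 0 and 2. Arl6, the GTPase that recruits the BBSome, stood at 5.40 against 3.11 RPKM (0.65), the chaperonin-like Mkks at 3.72 against 2.13 RPKM (0.59), Trim32 at 8.05 against 5.13 RPKM (0.56) and Wdpcp at 2.23 against 1.23 RPKM (0.54). Lztfl1, known to hold back BBSome entry into cilia, was the gene lower in osteoblasts, at 5.66 against 8.52 RPKM (-0.52). Bbip1 and Ttc8 were not called.

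In the transition zone, the gate at the ciliary base, 3 of 16 tested were higher in osteoblasts, 2 higher in chondrocytes and 11 not called. Rpgrip1l, a gate scaffold, stood at 2.99 against 0.754 RPKM (1.18), B9d2 at 5.65 against 3.51 RPKM (0.56) and Tmem216 at 4.10 against 2.82 RPKM (0.41). Iqcb1, a calmodulin-binding nephrocystin, was at 2.30 against 5.71 RPKM (-1.02) and Tmem67 (meckelin) at 1.86 against 3.35 RPKM (-0.60). Tmem107 was level at 10.2 RPKM in both. Under median-of-ratios scaling 1 of 18 tested was higher in osteoblasts and 9 in chondrocytes.

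Of 14 tested genes that act at the ciliary membrane or feed it, 8 were higher in osteoblasts and 1 in chondrocytes, and 6 and 1 under median-of-ratios scaling. The osteoblast share as deposited was near that of all genes. Rab3ip (Rabin8), the exchange factor for Rab8, was at 2.54 against 0.476 RPKM (1.26), Rab23, a hedgehog inhibitor, at 9.34 against 3.98 RPKM (1.06), and the adenylate cyclase Adcy6 at 22.6 against 10.99 RPKM (1.00). Pkd1 was higher in chondrocytes (22.2 against 33.6 RPKM, -0.60), and its channel partner Pkd2 was not called at 41.7 against 39.9 RPKM. Of 16 basal body and ciliogenesis genes, osteoblasts had 5 higher and chondrocytes 1, against 4 and 4 under median-of-ratios scaling. Cep164 (8.02 against 3.02 RPKM, 1.21) and Ccdc41 (Cep83, 7.79 against 3.41 RPKM, 1.00), of the distal appendages, were higher in osteoblasts. Sclt1, also a distal appendage gene, was the 1 gene of the list higher in chondrocytes (2.16 against 3.65 RPKM, -0.55). Cby1, a basal body protein, was at 12.8 against 5.79 RPKM (1.04), Ninl at 1.57 against 0.520 RPKM (0.76) and Fbf1 at 8.37 against 5.72 RPKM (0.48), and Odf2 was not called at 12.8 against 15.3 RPKM.

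**Figure D4:**
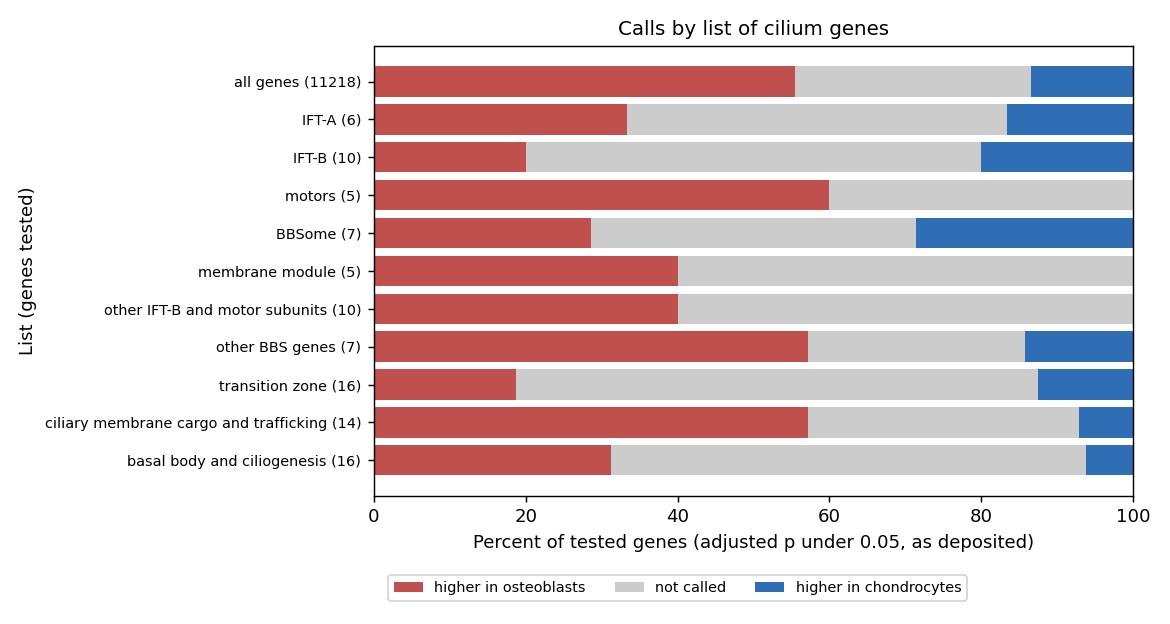
Percent of tested genes in each list that were higher in osteoblasts (red), not called (grey) or higher in chondrocytes (blue) at an adjusted p under 0.05 on the deposited scale, with the number tested in brackets. All genes give 55.5% red and 13.5% blue. Every list has less red than that except the motors, the other BBS genes and ciliary membrane cargo and trafficking, which have slightly more.

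Genes of motile cilia were low in both cell types, and 2 of 16 passed the filter. Foxj1, the master regulator of motile ciliogenesis, and axonemal dyneins were picked out after their values were seen. Foxj1 was at 0.411 and 0.169 RPKM, and the axonemal dynein genes Dnahc5, Dnahc9 and Dnahc11 were at or below 0.00667 RPKM on average. The 2 that were tested, Ccno and Rsph9, were higher in chondrocytes (0.697 against 1.88 and 1.44 against 2.31 RPKM). Among 7 tested genes of cilium disassembly 4 were higher in osteoblasts, Plk1 (1.97), Aurka (1.27), Plk4 (0.80) and Hdac6 (0.55). Nedd9, which activates Aurka at the cilium, was higher in chondrocytes at 15.4 against 28.0 RPKM (-0.83). Nek2 and Kif2a were not called. Median-of-ratios scaling left 1 gene of the list higher in osteoblasts and 2 in chondrocytes. Some of these genes also mark dividing cells, and Aurka was at 0.796, 5.31 and 0.993 RPKM in chondrocyte replicates 1 to 3. Plk1, Plk4 and Nek2 were likewise highest in chondrocyte replicate 2, the library with the highest proliferation sum of its group. Hdac6 (4.58, 3.04 and 4.02 RPKM) and Kif2a (6.37, 4.85 and 5.78 RPKM) were lowest there, and Nedd9 was at 29.1, 28.3 and 26.7 RPKM. In the hedgehog pathway, which signals through the cilium, Hhip, Gli1, Sufu and Ptch1 were higher in osteoblasts (2.76, 1.67, 0.68 and 0.60), Boc, Gli3, Gli2 and Gas1 in chondrocytes (-1.86, -0.91, -0.80 and -0.80), and the ciliary receptor Smo was not called at 47.2 against 43.7 RPKM. With median-of-ratios scaling 2 of 11 tested were higher in osteoblasts (Hhip and Gli1) and 6 in chondrocytes, Smo (-0.32, limma adjusted p = 0.0365) and Cdon (-0.71, adjusted p = 0.0051) among them.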

How the data were processed

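RNA-seq libraries were made from total RNA with a TruSeq kit, per the labels' protocols, and TopHat2 2.0.8 and the mouse build mm9 are named in the submitters' processing notes. The authors deposited 1 table of RPKM values per RefSeq transcript for 6 libraries, in which an unexpressed transcript is listed at 0.0001. The counting program, its annotation and its use of strand are not given in the sources used here. The transcripts of a gene were added up, and a gene was kept where it reached an RPKM of 1 in 3 or more libraries. Differences on the log2(RPKM + 1) scale, computed from the deposited RPKM, were tested two-sided with limma 3.58.1 in R 4.3.3 (trend and robust moderation, no covariate), with Benjamini-Hochberg adjustment over all tested genes and a threshold of 0.05. A log2 difference on this scale understates the change of low genes.

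All 34 members were named, with values in every library for called members, for up to 3 of the most abundant uncalled members per class and for Bbs10. From each other list, up to 3 called genes in each direction were named by size of difference, with the most abundant uncalled gene and any gene in a count of 5 or fewer on the deposited scale. Some further genes were named for their calls under median-of-ratios scaling. The members, lists and named genes were chosen with earlier results of these data known. Reads behind a value were estimated from the steps between low RPKM values, using transcript lengths matched by RefSeq ID to GENCODE M21. Between 59.2% and 62.9% of low values lay within 0.05 of a whole read, against 10% by chance, so no count test was run. Promoter sequences came from RefSeq on GRCm38.p6, and no mm9 coordinate was used. There were 18 alternatives, 16 planned and 2 chosen after seeing the data. The procedure was tested on simulated data.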

Additional observations from a re-analysis of the deposited data

How the results depend on the processing

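Scaling moved the members' counts most among the 18 alternatives. The members higher in osteoblasts and in chondrocytes, 11 and 5 as deposited, were 4 and 16 under median-of-ratios scaling, under upper-quartile scaling, and under median-of-ratios scaling with no filter on low values. All tested genes gave 55.5% and 13.5% in these directions as deposited. In the other 3 settings, in that order, they gave 33.1% and 29.0%, 32.5% and 29.1%, and 25.5% and 20.8%. Scaling to an equal RPKM sum gave 9 and 10, and leaving the 10 most abundant genes out of that sum gave 8 and 10. All tested genes gave 47.9% and 18.1% with the equal sum, and 40.3% and 23.4% without those 10 genes. The settings with no filter under median-of-ratios scaling and without those 10 genes were chosen after seeing the data. Keeping only genes with a mean RPKM of 5 or more, which left 14 members, gave 6 and 0 (59.2% and 12.8% of all tested genes). The transcript of highest mean gave 11 and 3 (55.1% and 13.2%), with Bbs9 not called and Bbs12 not tested. Leaving out 1 library at a time gave 8 to 11 higher in osteoblasts and 4 to 10 higher in chondrocytes. The 10 came without chondrocyte replicate 2 and the 8 without osteoblast replicate 1 or 2. All tested genes then gave 43.5% to 57.7% and 9.18% to 14.9%. Pseudocounts of 0.1 and 5 and moderation without trend kept the counts at 11 and 5, with 55% to 56% and 13.3% to 13.6% of all tested genes. No filter gave 10 and 6, with 40.8% and 10.7% of all tested genes.

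Of the members 12 went from a positive to a negative difference under median-of-ratios scaling, with or without the filter: Arl13b (-0.33), Bbs1 (-0.28), Bbs5 (-0.03), Ift140 (-0.15), Ift172 (-0.14), Ift20 (-0.25), Ift46 (-0.33), Ift52 (-0.22), Ift57 (-0.10), Tctn1 (-0.21), Tctn2 (-0.27) and Wdr35 (-0.23). The same 12 turned under upper-quartile scaling, at -0.33, -0.28, -0.03, -0.16, -0.15, -0.26, -0.33, -0.23, -0.11, -0.22, -0.28 and -0.24 in that order. Scaling to an equal RPKM sum turned 4 members negative, and 10 without the 10 most abundant genes. Leaving out 1 library turned the sign of Bbs1 or Ift74 alone, both uncalled.

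Same-numbered libraries did not deviate together (r = 0.0791, 0.00964 and -0.155 across genes for numbers 1, 2 and 3), so the numbers were not taken as pairs. With the replicate block the counts were 10 and 5 (52.5% and 12.3% of all tested genes), and Ift57 was no longer called (limma adjusted p = 0.0909). Each group had 3 libraries, and the estimated depth limits Bbs10 most, at 19.8 reads in its lowest library.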
